A study of Saccharomyces cerevisiae with 14 samples.

Results

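The 9 yeast genes described here make arginine (ARG2, ARG8, ARG7, CPA1, ARG3, ARG1 and ARG4) or break it down (CAR1 and CAR2), and they were followed while cells growing on proline received glutamine. They were chosen by name and found through the array annotation, which gave each of them 1 probe set, so 9 genes of the 5449 measured are members. The cells were wild-type Saccharomyces cerevisiae of strain YSBN6, grown in batch in defined minimal medium (30 °C, pH 5) with 20 g/L glucose and 200 mg/L proline, a poor nitrogen source. At an OD600 of about 1, glutamine, a preferred nitrogen source, was added as a pulse to 400 mg/L. Total RNA was read on 14 Affymetrix arrays. Proline-grown cells at steady state, labelled -10 min, and cells at 7 and 24 min after the pulse had 3 arrays each, which the design text calls biological triplicates, from the experiments BY003, BY008 and BY012. Only BY008 was read at 3, 10, 14, 56 and 120 min, on a single array per time, so values at these times have no replicates and were not tested. The labels do not say whether 1 culture was sampled at several times. Each array read RNA of a whole culture, so a change in a share of the cells cannot be told apart from a smaller change in all of them.

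Yeast builds ornithine from glutamate in the mitochondrion through acetylated intermediates, and then turns ornithine into arginine in the cytosol through citrulline and argininosuccinate. Arginase and ornithine transaminase run the other way and return the nitrogen of arginine to the cell. The ArgR complex (Arg80, Arg81 and Mcm1, with the inositol polyphosphate kinase Arg82) senses arginine, represses synthesis genes and activates breakdown genes. The activator Gcn4 raises many synthesis genes in amino acid shortage, and GATA factors and the repressor Ume6 act on the breakdown genes.

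All values below are on the log2 scale of the deposited intensities. Array medians of the intensity ran from 159 to 279 over all probe sets, and precision is limited by how many arrays there are. The median gene stood lower after the pulse, by -0.33 at both 7 and 24 min, and by -0.01 at 24 min against 7 min. A gene was called changed at an adjusted p under 0.05 in a limma fit over all 5449 genes. The -10 min array of BY012 stood apart for CAR2, 2.05 above the mean of the other -10 min arrays, and for ARG8, at -1.04. CAR1 was at 1.35 and ARG3 at -0.84 by this measure, but neither set BY012 alone apart. At -10 min CAR1 read 10.49, 11.68 and 12.43 in BY003, BY008 and BY012, and ARG3 12.82, 12.22 and 11.67. On the -10 min array of BY012 the other members lay between -0.64 (ARG4) and 0.38 (CPA1), and the median gene at 0.11. Where leaving out this array moved a value of the breakdown genes, ARG8 or ARG3 by over 1.5 times, the value without it is given.

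In each comparison 2 or 3 of the 9 arginine genes were called, and not the same ones. At 7 min CAR1 and ARG4 fell, at 24 min ARG2, ARG8 and ARG7 stood above their proline level, and between 7 and 24 min ARG7, ARG4 and CAR1 rose. Counted over the 9 members, 0 rose and 2 fell at 7 against -10 min (limma, adjusted p under 0.05), where 16.7% of all genes rose and 35.7% fell. At an unadjusted p under 0.05, ARG2 was higher as well and ARG1 lower. At 24 against -10 min 3 rose and 0 fell, where 24.1% of all genes rose and 44.9% fell, and at an unadjusted p under 0.05 no further member was lower. At 24 against 7 min 3 rose and 0 fell, where 13.2% of all genes rose and 20.2% fell. Arrays did not overlap for 1 member above and 3 below at 7 against -10 min, beside 19.5% and 44.2% of all genes. The same counts were 3 and 0 at 24 against -10 min, beside 26% and 47.2%, and 3 and 0 at 24 against 7 min, beside 28.1% and 28.3%. Without BY003, 0 members rose at 24 against 7 min, and 388 genes were called in place of 1817, while without BY012 CAR1 alone rose. Without BY012, 1 member rose and 1 fell at 24 against -10 min. The 7 synthesis genes had a median change of 0.06 (7 min), 0.14 (24 min) and 0.51 (24 against 7 min), beside -0.33, -0.33 and -0.01 for the median gene. Of the 9 members, 5 had 1 sign in all experiments at 7 min, 4 at 24 min and 6 at 24 against 7 min, beside 82.3%, 83.1% and 74.0% of all genes.

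CAR1, for arginase, which splits arginine into ornithine and urea, fell at 7 min and was back at its starting range by 24 min. In BY003 it read 10.49, 9.64 and 11.62 at -10, 7 and 24 min. Readings in BY008 were 11.68, 10.45 and 12.29 at these times, and those in BY012 were 12.43, 9.23 and 11.51. All 3 arrays at 7 min lay below all 3 at -10 min and below all 3 at 24 min, whereas the ranges at 24 and -10 min overlapped. The change at 7 min was -1.76 ± 0.48 (SE, n = 3 arrays per time; limma, adjusted p = 0.0133), 3.39-fold lower, placing CAR1 at percentile 3.47 of all genes by change. By experiment the change was -0.85 (BY003), -1.23 (BY008) and -3.20 (BY012). Without BY012 the change was -1.04 and not called (adjusted p = 0.129), while without its -10 min array alone it was -1.31 (adjusted p = 0.0469). From 7 to 24 min CAR1 rose in every experiment, namely by 1.98 (BY003), 1.84 (BY008) and 2.29 (BY012). That rise was 4.10-fold (2.04 ± 0.48, adjusted p = 0.0112), at percentile 99.3 of all genes, and it was not called without BY003 (2.07, adjusted p = 0.0603). The change at 24 against -10 min was 0.27 ± 0.48 (adjusted p = 0.626), higher in BY003 and BY008 and lower in BY012, and it was 0.72 without the -10 min array of BY012 (adjusted p = 0.193).

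**Figure D1:**
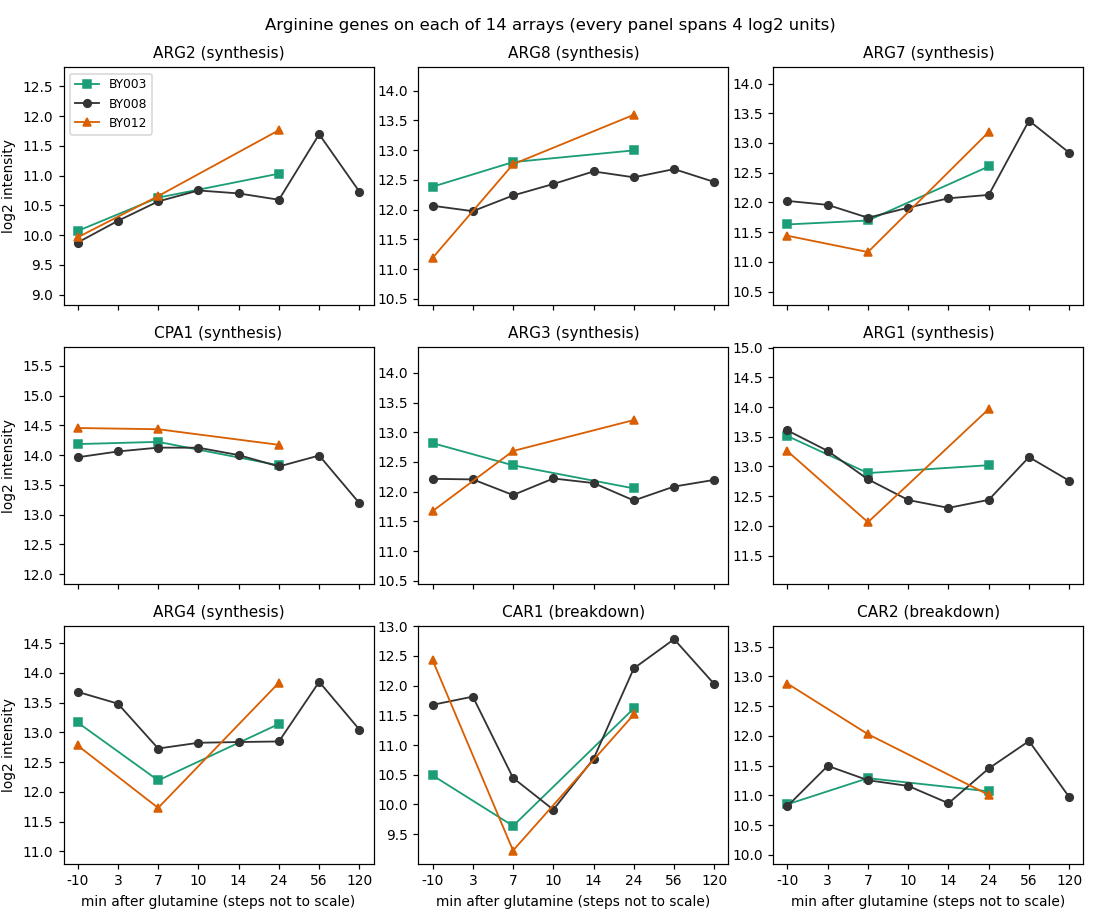
Log2 intensity of each arginine gene (vertical axis) on every array against the time label in min (horizontal axis, evenly spaced and not to scale), with squares for BY003, circles for BY008 and triangles for BY012. CAR1 is lowest at 7 min in BY003 and BY012 and at 10 min in BY008, and 6 of the 9 genes have their highest BY008 value at 56 min.

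The single arrays of BY008 fill in this course. CAR1 stood 0.14 above its -10 min value at 3 min, then at -1.23, -1.76 and -0.91 at 7, 10 and 14 min. It stood at 0.61, 1.10 and 0.35 at 24, 56 and 120 min. Its lowest reading, 9.91, was thus at 10 min and its highest, 12.78, at 56 min, a range of 2.87, wider than that of any other member in BY008.

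CAR2, for the ornithine transaminase that acts after arginase, gave no call at any time, and its arrays spread widely before the pulse. It read 10.85, 11.29 and 11.07 at -10, 7 and 24 min in BY003. The BY008 arrays gave 10.82, 11.25 and 11.45, and the BY012 arrays 12.88, 12.03 and 11.01. BY003 and BY008 lay above their own -10 min value at 7 and 24 min, while BY012 lay below it at both. The mean change was 0.01 ± 0.50 at 7 min (limma, adjusted p = 0.992) and -0.34 ± 0.50 at 24 min (adjusted p = 0.561). Without the -10 min array of BY012 the change was 0.69 ± 0.25 at 7 min (adjusted p = 0.0558) and 0.34 at 24 min (adjusted p = 0.263), so the size at 7 min and the sign at 24 min rested on that array. At 3 min in BY008, CAR2 was already 0.68 above -10 min, at percentile 93.0 of all genes, whereas CAR1 was at 0.14.

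The breakdown genes had the widest spread of the members at steady state, and for CAR2 1 array carried it, since BY012 read 12.88 against 10.85 in BY003 and 10.82 in BY008. The SD over the 3 arrays at -10 min was 1.18 for CAR2 and 0.98 for CAR1, above 98.5% and 97.2% of all genes, where the median gene had 0.27. At 24 min every synthesis gene but CPA1 (0.20) spread more than CAR1 (0.42) and CAR2 (0.24). ARG2, ARG8 and ARG7, called higher then, had SDs of 0.59, 0.53 and 0.53, at percentiles 94.5, 92.5 and 92.6 of all genes. Across all 14 arrays CAR1 and CAR2 correlated with r = 0.22, a description over arrays of which 8 come from BY008.

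The 3 genes of the acetylated route to ornithine that were measured, ARG2, ARG8 and ARG7, were called higher at 24 min, though neither ARG8 nor ARG7 was without BY012. ARG5,6, for steps between them, was not analysed here. ARG2 encodes acetylglutamate synthase, the entry step. It read 10.07, 10.63 and 11.03 at -10, 7 and 24 min in BY003. In BY008 it read 9.87, 10.57 and 10.59, and in BY012 9.96, 10.66 and 11.76. Every array at 7 and 24 min lay above every array at -10 min. At 24 min ARG2 was 2.24-fold higher (1.16 ± 0.25, SE, n = 3; limma, adjusted p = 0.00264). At 7 min its change was 0.65 ± 0.25 and just missed the threshold (adjusted p = 0.0552). With experiment as a replicate block that change was called (adjusted p = 0.0360), as it was with array medians subtracted (0.85, adjusted p = 0.0268). Without BY012 it passed too (0.63, adjusted p = 0.0415). The single arrays of BY008 put it 0.37 above -10 min at 3 min and 1.82 above at 56 min, 3.54-fold.

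ARG8 encodes acetylornithine aminotransferase, a later step of the route. It read 12.39, 12.80 and 13.00 at -10, 7 and 24 min in BY003. BY008 gave 12.07, 12.24 and 12.54, and BY012 11.19, 12.76 and 13.60. Each experiment gave higher values at 7 min and higher still at 24 min, with the widest span in BY012. ARG8 rose 2.24-fold at 24 min (1.17 ± 0.35, limma, adjusted p = 0.0140), while the change at 7 min was 0.72 ± 0.35 (adjusted p = 0.107). Leaving out the -10 min array of BY012 gave 0.38 at 7 min (adjusted p = 0.341). Without BY012 the change at 24 min was 0.54 (adjusted p = 0.113), and without its -10 min array alone 0.82 (adjusted p = 0.0471).

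ARG7 encodes the ornithine acetyltransferase that releases ornithine and recycles the acetyl group. It read 11.63, 11.70 and 12.61 at -10, 7 and 24 min in BY003. In BY008 it read 12.03, 11.74 and 12.13, and in BY012 11.44, 11.16 and 13.18. The arrays at 24 min lay above all those at -10 and 7 min, whose ranges overlapped. The rise at 24 against -10 min was 0.94 ± 0.28 (limma, adjusted p = 0.0143) and at 24 against 7 min 1.10 ± 0.28 (adjusted p = 0.0163), 2.15-fold, at percentile 97.3 of all genes. The call against -10 min was lost without the -10 min array of BY012 (0.81, adjusted p = 0.0527), without BY012 (0.54, adjusted p = 0.0730) or without BY003 (0.92, adjusted p = 0.113). Against 7 min it did not pass without BY003 (adjusted p = 0.142) or without BY012 (adjusted p = 0.0757). In BY008 the rise came late: ARG7 stood 0.10 above -10 min at 24 min and 1.35 above at 56 min. ORT1, for the carrier that exports ornithine from the mitochondrion, fell at 7 min (-1.21 ± 0.38, adjusted p = 0.0230, but 0.0612 with array medians subtracted and 0.160 without BY003) and stood at -0.22 ± 0.38 at 24 min (adjusted p = 0.615).

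CPA1 and ARG3 supply citrulline and gave no call. CPA1 encodes the small subunit of the carbamoyl phosphate synthetase that feeds arginine synthesis. It read 14.19, 14.22 and 13.83 at -10, 7 and 24 min in BY003. BY008 gave 13.96, 14.13 and 13.81, and BY012 14.46, 14.44 and 14.17. The value at 24 min was the lowest of the 3 in each experiment, yet the change against -10 min was -0.26 ± 0.17 (limma, adjusted p = 0.202), close to the shift of the median gene. These readings lie near the highest value of any probe set, 15.14, and whether that compressed changes of CPA1 was not tested. The 120 min array of BY008 read 13.19, at -0.77 against -10 min.

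The leader of the CPA1 messenger holds a small open reading frame, annotated as YOR302W, whose peptide stalls ribosomes when arginine is plentiful. It has a probe set of its own, and of all genes its values correlated best with those of CPA1, at r = 0.92 over the 14 arrays, although the points share experiments and array scale. This gene was looked up after the values were seen. In BY008 YOR302W read 11.79 at -10 min, 12.48 at 7 min, 11.88 at 24 min and 11.04 at 120 min. Both probe sets therefore had their lowest BY008 reading at 120 min.

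ARG3 encodes ornithine carbamoyltransferase, which makes citrulline. It read 12.82, 12.44 and 12.06 at -10, 7 and 24 min in BY003. The same times read 12.22, 11.94 and 11.85 in BY008, and in BY012 11.67, 12.68 and 13.20. The experiments thus went opposite ways, with lower values after the pulse in BY003 and BY008 and higher ones in BY012. The mean change was 0.12 ± 0.39 at 7 min (limma, adjusted p = 0.807; -0.16 without the -10 min array of BY012) and 0.14 ± 0.39 at 24 min (adjusted p = 0.772), or -0.56 at 24 min without BY012 (adjusted p = 0.109) and -0.15 without its -10 min array alone (adjusted p = 0.775). Its range over the 8 arrays of BY008 was 0.37.

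Of the genes for the last steps, ARG4 was called lower at 7 min and ARG1 was not. ARG1 encodes argininosuccinate synthetase. It read 13.51, 12.89 and 13.02 at -10, 7 and 24 min in BY003. BY008 gave 13.61, 12.78 and 12.44, and BY012 13.26, 12.06 and 13.97. All 7 min arrays lay below all -10 min arrays, but the change of -0.88 ± 0.36 did not pass the test (limma, adjusted p = 0.0663), though without BY012 it did (-0.72, adjusted p = 0.0402). At 24 min it was -0.32 ± 0.36 (adjusted p = 0.457), lower in BY003 and BY008 and higher in BY012, and without BY012 ARG1 was called lower (-0.83, adjusted p = 0.0164). In BY008 its lowest reading, 12.30, was at 14 min.

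ARG4 encodes argininosuccinate lyase, which releases arginine. It read 13.17, 12.19 and 13.14 at -10, 7 and 24 min in BY003. In BY008 it read 13.68, 12.73 and 12.85, and in BY012 12.78, 11.73 and 13.84. ARG4 fell by nearly the same amount in each experiment at 7 min, -0.97 (BY003), -0.95 (BY008) and -1.05 (BY012). The mean was -0.99 ± 0.34 (limma, adjusted p = 0.0335), 1.99-fold lower. Subtracting array medians ended this call (-0.79, adjusted p = 0.101), and so did leaving out BY003 (adjusted p = 0.177). At 24 against 7 min ARG4 rose 2.08-fold (1.06 ± 0.34, adjusted p = 0.0386), with experiments at 0.95 (BY003), 0.12 (BY008) and 2.11 (BY012). Leaving out BY003 (1.11, adjusted p = 0.230) or BY012 (0.53, adjusted p = 0.178) ended the call. At 24 against -10 min it stood at 0.07 ± 0.34 (adjusted p = 0.871).

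**Figure D2:**
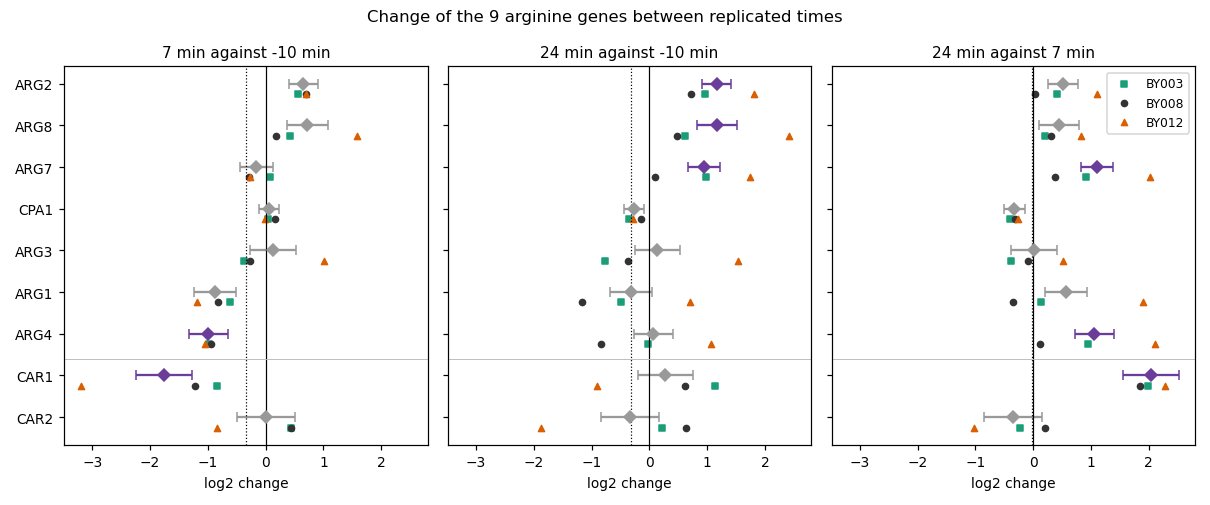
Log2 change of each arginine gene (horizontal axis) in the 3 comparisons between replicated times, with the limma estimate and its SE as diamonds (purple where called, grey where not) and each experiment as a small symbol (n = 3). The solid vertical line marks no change and the dotted line the median gene; the grey line divides synthesis from breakdown genes. CAR1 and ARG4 are called lower at 7 min, and ARG2, ARG8 and ARG7 higher at 24 min.

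Synthesis and breakdown genes were then compared within each experiment, as the mean change of the 7 synthesis genes minus that of CAR1 and CAR2. This difference is a score over chosen genes and was not tested. At 7 against -10 min it was 0.08 in BY003, 0.21 in BY008 and 2.13 in BY012, with a mean of 0.81 ± 1.15 (SD, n = 3), or 0.14 ± 0.094 without BY012 or without its -10 min array alone. At 24 against -10 min it was -0.54 in BY003, -0.80 in BY008 and 2.68 in BY012, or 0.45 ± 1.94 on average, and its mean without BY012 was -0.67 ± 0.18. At 24 against 7 min it was -0.62, -1.01 and 0.54 in the same order (-0.36 ± 0.81), with a mean of -0.81 ± 0.27 without BY012, -0.23 without BY003 and -0.039 without BY008. Each mean over 3 experiments was smaller than its SD, which BY012 set: without it each mean exceeded its SD (n = 2). At 7 min all 3 experiments had the same sign. BY012 gained synthesis over breakdown messages at 24 min, whereas in BY003 and BY008 the balance lay on the breakdown side.

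**Figure D3:**
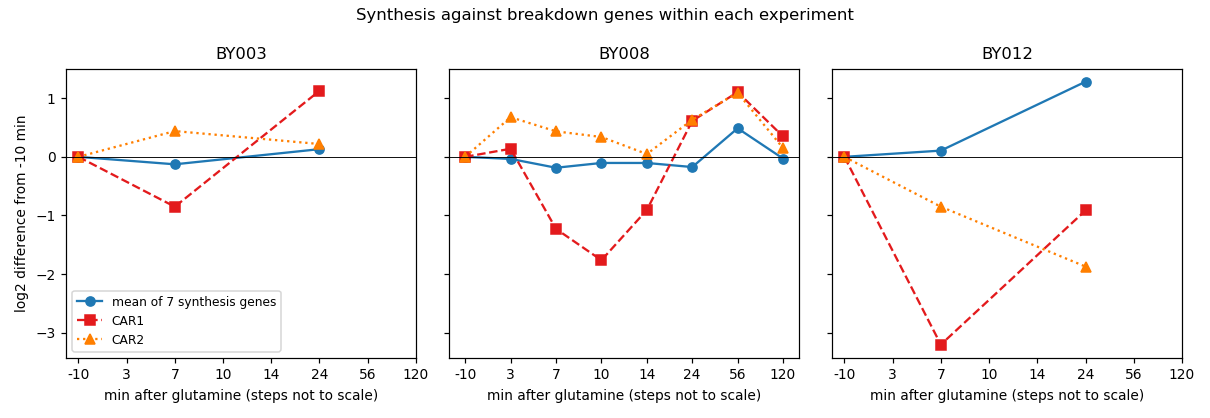
Log2 difference from the -10 min array of the same experiment (vertical axis) for the mean of the 7 synthesis genes (circles), CAR1 (squares) and CAR2 (triangles) against the time label in min (evenly spaced, not to scale), with 1 panel per experiment and 1 array per point. CAR1 dips at 7 min in every panel, while the synthesis mean is above both breakdown genes at 24 min in BY012 alone.

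The experiments ranked oppositely for synthesis and breakdown at 24 min. All 7 synthesis genes were highest in BY012 and lowest in BY008, an order held by 20.2% of all genes. CAR1 and CAR2 were both highest in BY008 and lowest in BY012, an order held by 32.6% of all genes. This pattern was noticed in these values and not tested. At -10 min, 5 of the 7 synthesis genes were lowest in BY012, beside 29.8% of all genes, and both breakdown genes were highest there, as were 48.7% of all genes.

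On the late arrays of BY008 most members, though not all, had a high point at 56 min. Of the 9 members, 6 had their highest BY008 reading at 56 min (ARG2, ARG8, ARG7, ARG4, CAR1 and CAR2), beside 14.2% of all genes. The margin was small for ARG8, at 12.68 against 12.64 at 14 min, and for ARG4, at 13.85 against 13.68 at -10 min. ARG1 was highest at -10 min, CPA1 at 7 min and ARG3 at 10 min. All 9 stood higher at 56 than at 24 min, beside 55.8% of all genes, and 8 of them were lower again at 120 min, where ARG3 was not. Of all genes 54.3% were lower at 120 than at 56 min, and 30.5% made both moves. At 56 min the synthesis genes averaged 0.49 above -10 min and ranged from -0.45 for ARG1 to 1.82 for ARG2. CAR1 and CAR2 stood at 1.10 and 1.09 then, and at 0.35 and 0.15 at 120 min. With 1 array at each of these times, no spread is known.

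Among themselves the synthesis genes were not 1 block. Over the 14 arrays the 21 pairs of synthesis genes had r from -0.57 (ARG7 with CPA1) to 0.78 (ARG2 with ARG8), with a median of 0.21, and 5 pairs were below 0. ARG1 and ARG4 had r = 0.75, ARG7 and ARG4 0.73, and ARG2 and ARG7 0.77. Of the synthesis genes, CPA1 had the lowest correlation with their mean, r = -0.13, and ARG7 the highest, 0.82. CAR1 had r = 0.70 with ARG4 and 0.60 with ARG7. These values describe arrays that share experiments and carry no test.

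The genes that are no members and whose pattern was most like the synthesis mean over the 14 arrays were TRP3 (r = 0.89), VPS9 (0.88), HIS5 (0.87), LEU4 (0.85) and FOL2 (0.85). TRP3, HIS5 and LEU4 encode enzymes of tryptophan, histidine and leucine synthesis. TRP3 read 12.32 at 56 min in BY008 and 12.33 at 24 min in BY012, its highest readings. Most like the mean of CAR1 and CAR2 were PBS2 (r = 0.92), NAB6 (0.88), GDE1 (0.86), REG1 (0.86) and SEC3 (0.85). PBS2 encodes the kinase that activates Hog1, and REG1 a regulatory subunit of the Glc7 phosphatase. GDE1 lies next to CAR1 in the R64 gene order, on the opposite strand by its locus tag, and its own correlation with CAR1 was r = 0.87, the 12th highest of all genes. Other genes flanking a member had r with it from -0.61 (YJL070C beside ARG2) to 0.81 (PSF2, also beside ARG2). This leaves out YOR302W (0.92 with CPA1), which lies in the leader of the CPA1 messenger itself. An effect of gene order was not tested.

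Of 8 regulators of the pathway, 1 rose and 2 fell at 7 min, beside 16.7% and 35.7% of all genes. At 24 min 3 rose and 3 fell, beside 24.1% and 44.9%. ARG80, for a DNA-binding subunit of ArgR, rose 2.58-fold at 7 min (1.37 ± 0.35, limma, adjusted p = 0.0106, or 0.111 without BY003) and 6.11-fold at 24 min (2.61 ± 0.35, adjusted p = 0.000149). MCM1, for another DNA-binding subunit, rose at 24 min (0.86 ± 0.18, adjusted p = 0.00214, or 0.0649 without BY003). ARG81, for the subunit that senses arginine, was at -0.43 ± 0.25 at 7 min and 0.04 ± 0.25 at 24 min (adjusted p = 0.167 and 0.895). ARG82, for the kinase that ArgR needs, fell at both times (-1.62 ± 0.29 and -2.46 ± 0.29, adjusted p = 0.00160 and 6.29e-05), with no overlap between arrays of different times. ARG80 and ARG82 thus moved in opposite directions at both times. Both are dim, in the lowest 25% of genes by mean level. The ARG80 intensity at -10 min was 187, 123 and 238 in BY003, BY008 and BY012, within or near the range of array medians, so its fold rests on a faint baseline.

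**Figure D4:**
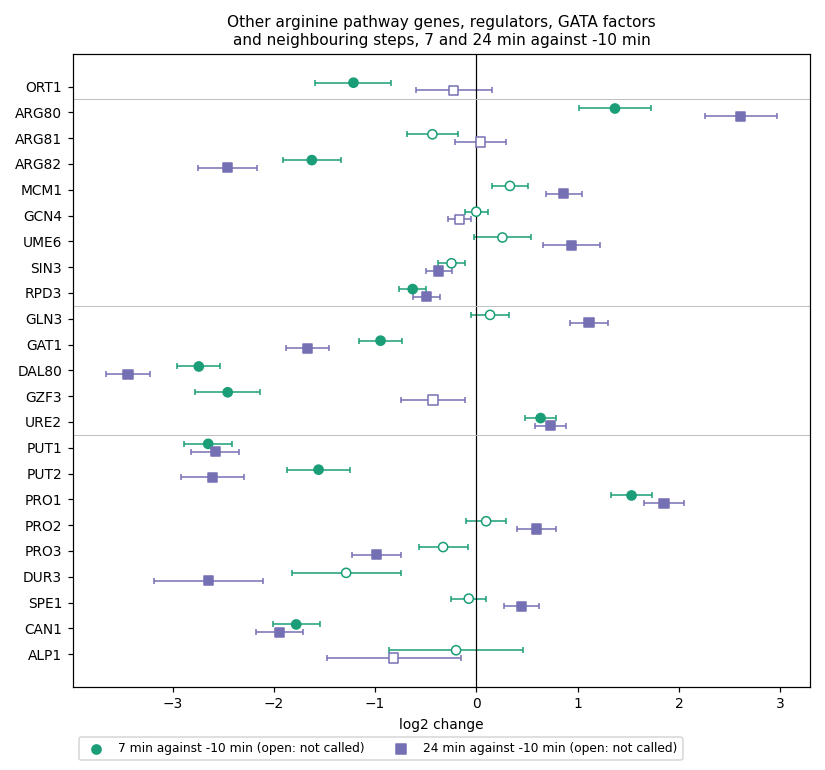
Log2 change with its SE (horizontal axis, n = 3 arrays per time) of the other arginine pathway gene, regulators, GATA factors with Ure2, and neighbouring steps (blocks from top to bottom), at 7 min (circles) and 24 min (squares) against -10 min, filled where called by limma. ARG80 rises and ARG82 falls at both times, and DAL80, PUT1 and CAN1 show large falls.

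Of the factors that act on CAR1 and CAR2, UME6, for the repressor that binds their promoters, rose at 24 min (0.94 ± 0.28, limma, adjusted p = 0.0145, or 0.0852 without BY003). Its partners SIN3 (-0.37 ± 0.13, adjusted p = 0.0282) and RPD3 (-0.49 ± 0.13, adjusted p = 0.00819), for a corepressor and a histone deacetylase, fell at 24 min, at about the shift of the median gene. Once array medians were subtracted, these 24 min changes were -0.09 (adjusted p = 0.509) for SIN3 and -0.21 (adjusted p = 0.182) for RPD3. At 7 min RPD3 was lower too (-0.63 ± 0.13, limma, adjusted p = 0.00375, or 0.0684 without BY003), a call kept after that subtraction. SIN3 was not called at 7 min (-0.25 ± 0.13, adjusted p = 0.135). GCN4 messenger was at -0.00 ± 0.11 at 7 min and -0.17 ± 0.11 at 24 min (adjusted p = 0.994 and 0.202). Its 24 min arrays lay below all those at -10 and at 7 min, beside 47.2% and 28.3% of all genes. GCN4 read between 14.28 and 14.52, near the highest value of any probe set, 15.14, and whether that compressed its changes was not tested. Of the GATA factors and Ure2, 1 of 5 rose and 3 fell at 7 min, beside 16.7% and 35.7% of all genes. At 24 min 2 rose and 2 fell, beside 24.1% and 44.9%. DAL80, for a GATA repressor, fell at both times (-2.74 ± 0.21 and -3.44 ± 0.21). GZF3, for another GATA repressor, fell at 7 min (-2.46 ± 0.32, adjusted p = 0.000277) and rose at 24 against 7 min (2.03 ± 0.32, adjusted p = 0.00157, or 0.0610 without BY003). GZF3 and CAR1 thus both fell at 7 min and rose by 24 min, at percentiles 99.3 and 99.3 of all genes by change from 7 to 24 min. The genes for 2 GATA activators went opposite ways. GLN3 rose at 24 min (1.11 ± 0.19, limma, adjusted p = 0.000582). GAT1 fell at 7 min (-0.95 ± 0.21, adjusted p = 0.00522, or 0.0943 without BY003) and at 24 min (-1.67 ± 0.21, adjusted p = 9.88e-05).

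Among 9 genes of neighbouring steps, 1 rose and 3 fell at 7 min, beside 16.7% and 35.7% of all genes. At 24 min 3 rose and 5 fell, beside 24.1% and 44.9%. CAN1, for the arginine permease, fell at both times (-1.78 ± 0.23 and -1.95 ± 0.23, limma, adjusted p = 0.000296 and 7.03e-05). The product of Car2 is turned to proline by Pro3 and, in the mitochondrion, proline to glutamate by Put1 and Put2. PUT1 fell at both times (-2.65 ± 0.24 and -2.58 ± 0.24) and PUT2 likewise (-1.56 ± 0.31 and -2.61 ± 0.31), though the fall of PUT2 at 7 min was not called without BY003 (adjusted p = 0.0580). PRO3 was at -0.33 ± 0.24 at 7 min (adjusted p = 0.266) and fell at 24 min (-0.99 ± 0.24, adjusted p = 0.00503). PRO1, for the glutamate kinase that opens proline synthesis, rose at 7 and 24 min (1.53 ± 0.20 and 1.85 ± 0.20). DUR3, for the carrier of urea, the other product of arginase, fell at 24 min (-2.65 ± 0.54, adjusted p = 0.00183), when CAR1 stood at 0.27. For DUR3 the change at 7 min of -1.29 ± 0.54 was not called (adjusted p = 0.0701) unless the fit had a replicate block (0.0372). SPE1, for the ornithine decarboxylase of polyamine synthesis, rose at 24 min (0.45 ± 0.17, adjusted p = 0.0443), a call lost without BY003 or BY012 (adjusted p = 0.303 and 0.101), without the -10 min array of BY012 (0.0802) or with the added probe sets (0.0535).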

How the data were processed

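RNA of 14 yeast cultures or times was hybridised to Affymetrix arrays. The table the authors deposited holds a linear intensity for every probe set on each array. Per the submitters' processing notes, R 2.10.0, affy and RMA were used, with no order or settings given. Equal ranks on different arrays hold unequal values (a mean SD of 0.118 on the log2 scale), so it is unknown how the arrays were normalized, and the deposited intensity values were only turned into log2 here. Of 10928 probe sets, 5498 were annotated to 1 S. cerevisiae gene. Control probe sets (213), those of another organism or with no matched yeast gene (1747) and those with no listed gene (3470) were left out. The brightest probe set was kept for 47 genes with several, which gave 5449 genes. ARG5,6 and DUR1,2 were not analysed here, and no sequences were used. Gene coordinates served only to order genes along each chromosome.

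A mean per time label was fitted to all 14 arrays with limma 3.58.1 in R 4.3.3 (6 residual and 3.31 prior degrees of freedom), with Benjamini-Hochberg adjustment over all genes, and the fit was tested on simulated data. Figures used matplotlib 3.10.9 in Python 3.11.15. Members, lists and tests were chosen with earlier results of these data known. The named genes are the members, the 4 fixed lists, the 5 genes most correlated with each mean pattern, and YOR302W, added after its values were seen. The promoter motif search planned for the members was not run.

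Arrays share an experiment code in the labels, so a fit with that code as a replicate block was made too. As a check of this pairing, each array's deviations from its time mean were correlated over genes within an experiment. For BY003, r was 0.08 (-10 with 7 min), -0.05 (-10 with 24 min) and 0.21 (7 with 24 min). The same pairs gave 0.63, 0.36 and 0.35 for BY008, and 0.56, 0.08 and 0.44 for BY012. Other alternatives were subtraction of array medians, quantile normalization, a random block, a fit to 9 arrays, leaving out the dimmest genes, moderation with trend and robust options, the mean over probe sets, added probe sets, and leaving out each experiment or the -10 min array of BY012.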

Additional observations from a re-analysis of the deposited data

How the results depend on the processing

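Of 27 changes of the members, all kept direction and call with trend and robust options and with added probe sets. The fit to 9 arrays could not change a member, since single arrays add no residual degrees of freedom. The mean over probe sets could not change the size of a member's change, since each member has 1 probe set. Its SE and adjusted p could move through the other genes, and no call of a member differed. With experiment as a replicate block, as a random block, after quantile normalization or without dim genes, ARG2 at 7 min was the only change to differ, which makes 1 member called higher in place of 0 under each of these alternatives. The replicate block changed no other call of a member. Subtracting array medians gave 1 member higher and 1 lower at 7 min, and it turned the signs of ARG7 at 7 min (0.034) and CPA1 at 24 min (0.016), neither of them called. It also moved GCN4 to 0.20 at 7 min and 0.11 at 24 min, SPE1 to 0.12 at 7 min and ORT1 to 0.058 at 24 min, while quantile normalization gave 0.12 for SPE1 and 0.15 for ALP1 at 7 min and 0.060 for ORT1 at 24 min. In the time course of BY008, 1 of the member values moved by more than the residual SD under subtraction of array medians (CPA1 at 10 min) and 0 under quantile normalization. The cause of these changes was not tested.

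Leaving out an experiment, or the -10 min array of BY012, moved more, partly because fewer arrays were fitted. Genes called ranged between 1373 and 2549 at 7 min and between 388 and 2154 at 24 against 7 min, the low ends without BY003. Members higher ranged from 0 to 1 at 7 min, 1 to 3 at 24 min and 0 to 3 at 24 against 7 min, and members lower from 1 to 2 at 7 min and 0 to 1 at 24 min. The mean of synthesis minus breakdown at 24 min lay between -0.67 (without BY012 or its -10 min array) and 1.07. Against -10 min, ARG3 ranged between -0.32 and 0.37 at 7 min and between -0.56 and 0.58 at 24 min, and CAR2 between -0.21 and 0.69 and between -0.83 and 0.43. At 24 min the ranges were -0.83 to 0.11 for ARG1, -0.43 to 0.52 for ARG4, -0.15 to 0.87 for CAR1, -0.76 to 0.28 for ORT1 and -0.11 to 0.19 for ARG81. At 7 min they were -0.021 to 0.018 for GCN4, -0.096 to 0.21 for PRO2, -0.24 to 0.099 for SPE1 and -0.53 to 0.45 for ALP1. For 24 against 7 min they were -0.24 to 0.21 for ARG3, -0.11 to 1.02 for ARG1, -0.53 to 0.062 for CAN1, -0.015 to 0.17 for PUT1 and -0.027 to 0.25 for URE2. Of 69 changes of the listed genes that are no members, 20 lost their call without BY003, 5 with array medians subtracted and 0 with the replicate block, which added 6. None of the changes of sign given above concerned a change called with all arrays. The signals of CPA1 and GCN4 near the top of the scale limit what can be seen for them.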
